A study of Mus musculus with 8 samples.

Results

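The genes described here encode the proteases, cofactors, inhibitors and substrates of blood clotting and its dissolution, together with the proteins of the complement system. A list of 43 gene symbols was matched to the array annotation. Of these, 40 had a probe set with exactly 1 gene symbol that passed the filter on low signals. Where a gene had several such probe sets, the one with the highest mean over all arrays stood for it. These genes are 40 of the 14450 genes tested. The other listed genes, C3, Cfd and Cpb2, were not analysed here.

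Liver RNA was measured on 8 Affymetrix arrays in 4 groups of 2. The groups were Tob1 null mice 24 h after partial hepatectomy, unoperated Tob1 null mice (0 h), wild type mice 24 h after partial hepatectomy and unoperated wild type mice (0 h). All animals were male C57BL/6 mice aged 7 to 10 weeks, the null allele was carried on the same background, and the operation removed the median and left lateral lobes. Each array held RNA pooled from 3 different animals, so the spread between arrays is a spread between pools. No group held sham-operated animals, so the operation and the loss of liver tissue cannot be told apart.

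Hepatocytes make most plasma clotting and complement proteins and secrete them as inactive precursors. In clotting, a tissue factor pathway and a contact pathway both lead to factor X, which with factor V turns prothrombin into thrombin, and thrombin turns fibrinogen into fibrin. Protein C, antithrombin and other inhibitors limit the cascade, and plasmin dissolves the clot. Complement is started by antibody, by lectins that bind microbial sugars, or by spontaneous activation, and each route ends in a pore built from the terminal components. Fibrinogen and several complement proteins are also known as acute phase proteins, whose genes respond to interleukin-6 and interleukin-1 in the liver.

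Between replicate arrays the correlation was 0.951 to 0.959. The brighter Tob1 probe set went against the labels: it read 10.66 and 10.58 in null-labelled arrays at 24 h, 11.10 and 11.03 in null-labelled arrays at 0 h, 9.87 and 10.20 in wild type at 24 h and 10.46 and 10.53 in wild type at 0 h. Averaged over both times it was 0.58 ± 0.10 higher in the null-labelled arrays (log2 ± SE, limma, adjusted p = 0.173), and a dimmer probe set differed by -1.28 (adjusted p = 0.401 in a fit of all probe sets). Where these probe sets lie relative to the deletion is unknown here, so a direction between genotypes rests on the labels, and the arrays are called null-labelled. The log2 ratio of 3′ to 5′ control signals, which reflects RNA integrity, was lower at 24 h in both genotypes. For actin it was 1.27 ± 0.07 in null-labelled arrays at 24 h, against 1.56 ± 0.03 at 0 h, and 0.97 ± 0.09 in wild type at 24 h, against 1.22 ± 0.25 at 0 h (SD, n = 2 each). Its part in the results was not tested.

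At 24 h after hepatectomy most of these genes were lower, the 3 genes that rose being 2 fibrinogen chains and the complement inhibitor C4bp. Averaged over both genotypes (4 arrays against 4), 27 of the 40 fell and 3 rose at a Benjamini-Hochberg adjusted p under 0.05 by limma, where 15% of all genes tested fell and 13.8% rose. When the first null-labelled pool at 0 h was left out, 18 genes were called in place of 30. The median difference, 24 h minus 0 h, was -0.46 on the log2 scale over the 40 genes and -0.04 over all genes tested. The 4 arrays at 24 h all lay below the 4 arrays at 0 h for 26 of the 40 genes and all above them for 5, where 16.5% of all genes tested lay wholly below and 15% wholly above. These are bright genes: 30 of the 40 had a mean log2 signal above 10, as did 886 of all genes tested. Among the 30, 22 fell (73.3%), and 3 rose, while 28.6% of the 886 bright genes fell, 19% rose and their median difference was -0.05.

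**Figure D1:**
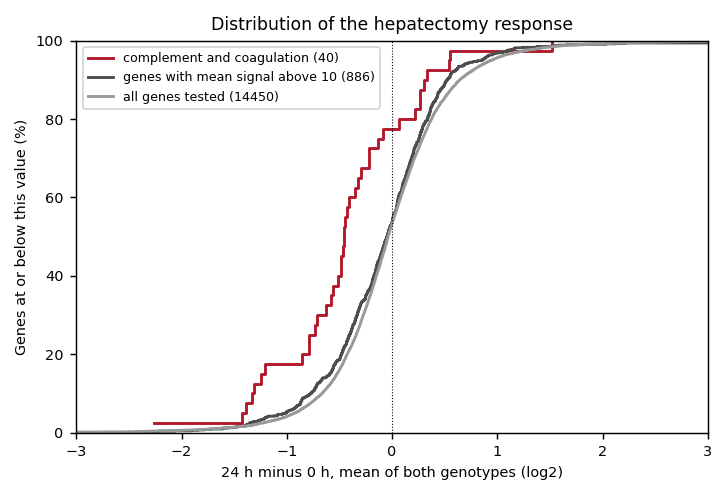
Cumulative share of genes (vertical axis, percent) at or below each log2 difference, 24 h minus 0 h averaged over both genotypes (horizontal axis), for the 40 complement and coagulation genes, the 886 genes with a mean log2 signal above 10 and all 14450 genes tested. The curve of the 40 genes lies to the left of the others over most of its range, with a median of -0.46.

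**Figure D2:**
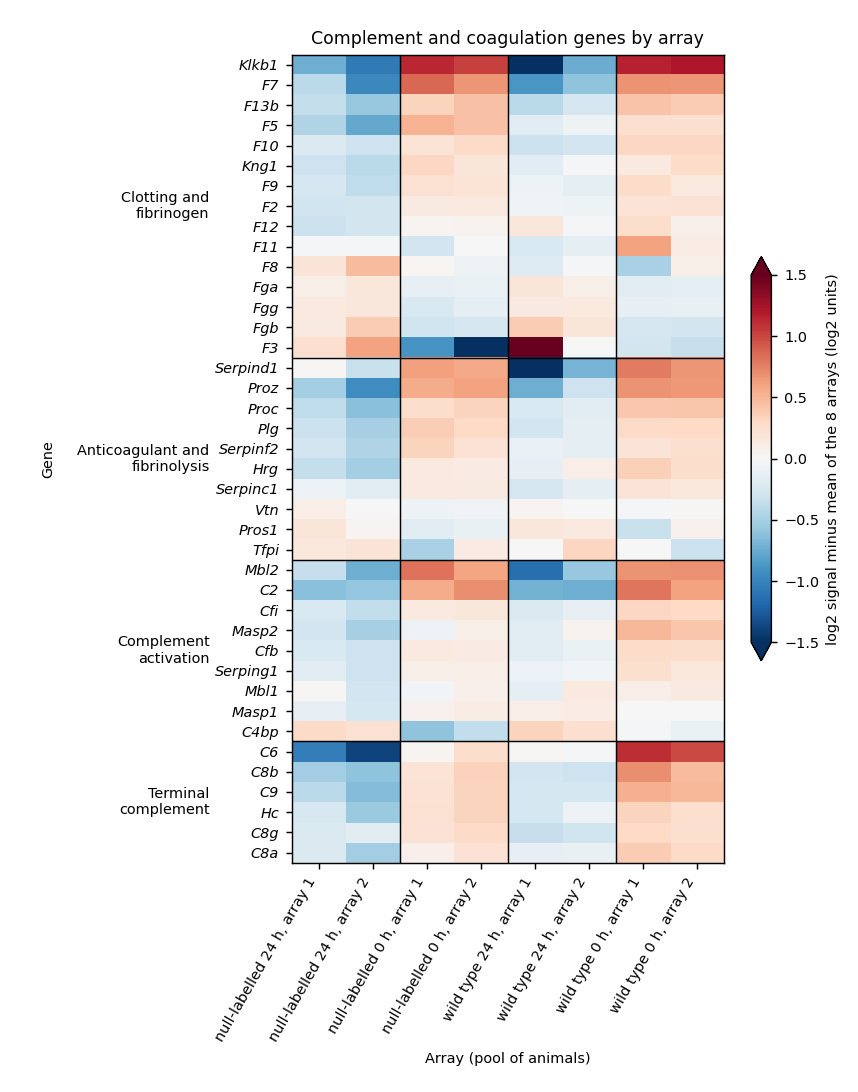
Log2 signal of each gene in each array minus its mean over the 8 arrays (colour, cut off at 1.5 in either direction), with genes grouped by role and arrays by group. Most genes are blue in the arrays at 24 h and red in the arrays at 0 h. The fibrinogen genes, C4bp and F3 are among the 9 genes with a higher mean at 24 h.

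By role, the counts were as follows, beside the 15% of all genes tested that fell and the 13.8% that rose; differences between the roles were not tested. Of the 15 clotting factors and fibrinogen chains 8 fell and 2 rose (median -0.36). Of the 10 anticoagulant and fibrinolysis genes 7 fell and none rose (median -0.46). Of the 9 genes of complement activation 6 fell and 1 rose (median -0.40), and all 6 genes of terminal complement fell (median -0.68). In bulk liver RNA, fewer cells of a type and less RNA per cell cannot be told apart. Of the 8 hepatocyte markers measured 3 fell, Fah (-0.95), Cps1 (-0.40) and Cyp2e1 (-0.29), and none rose. Their median was -0.21 in the null-labelled arrays and -0.02 in wild type, and -0.02 averaged over both genotypes. Alb, albumin, and Ttr, transthyretin, stood at 0.00 and -0.00 and did not pass. Their signals are as high as those of fibrinogen, where an array may respond less than in proportion to the RNA, which was not tested.

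The deepest fall among the clotting genes was that of Klkb1, plasma prekallikrein, the protease precursor of the contact system. Its log2 signal was 9.20 and 8.87 in null-labelled arrays at 24 h, against 11.06 and 10.95 at 0 h, and 7.95 and 9.19 in wild type at 24 h, against 11.09 and 11.14 at 0 h. All 4 arrays at 24 h lay far below all 4 at 0 h, and the wild type pools at 24 h differed more from each other than any other pair. The mean difference was -2.26 ± 0.27 (log2 ± SE, adjusted p = 0.0045), a 4.79-fold lower level.

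F7, the protease that tissue factor activates to start clotting, read 8.38 and 7.83 in null-labelled arrays at 24 h, against 9.64 and 9.45 at 0 h, and 7.91 and 8.19 in wild type at 24 h, against 9.46 and 9.45 at 0 h. The groups at 24 h and 0 h did not overlap, and the fall was alike in size in the genotypes (-1.44 and -1.40). Its mean difference was -1.42 ± 0.15 (adjusted p = 0.00351), or 2.68-fold.

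F13b, the carrier subunit of the fibrin-crosslinking factor XIII, read 10.09 and 9.88 in null-labelled arrays at 24 h, against 10.78 and 10.88 at 0 h, and 10.04 and 10.20 in wild type at 24 h, against 10.88 and 10.83 at 0 h. It fell by 0.79 ± 0.09 on the log2 scale (adjusted p = 0.00444). F5, the cofactor that factor Xa needs to cut prothrombin, read 10.02 and 9.70 in null-labelled arrays at 24 h, against 10.997 and 10.91 at 0 h, and 10.30 and 10.39 in wild type at 24 h, against 10.72 and 10.71 at 0 h. The arrays at 24 h were lower in both genotypes, and the step was larger in the null-labelled ones; the mean difference was -0.73 ± 0.10 (adjusted p = 0.00626).

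The serine proteases of the common and intrinsic pathways fell by less. F10 stood at -0.56 ± 0.08 (adjusted p = 0.00645), F9 at -0.43 (adjusted p = 0.0162) and F2, prothrombin, at -0.36 ± 0.08 (adjusted p = 0.0193, called in 13 of 19 settings). Kng1, the kininogen that carries prekallikrein in plasma, fell by 0.46 (adjusted p = 0.0159). F11 (-0.21, adjusted p = 0.286) and F12 (-0.22, adjusted p = 0.129), the other proteases of the contact pathway, did not pass. F8, the cofactor made mainly by endothelial cells, stood at 0.22 and did not pass. F3, tissue factor, was the dimmest and least precise of these genes, with 4.51 and 4.85 in null-labelled arrays at 24 h, against 3.37 and 2.71 at 0 h, and 6.44 and 4.25 in wild type at 24 h, against 3.98 and 3.91 at 0 h. Its arrays at 24 h all lay above those at 0 h, but the mean difference of 1.52 had an adjusted p of 0.0605.

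A group cut across these roles are the proteins whose glutamate residues are carboxylated with vitamin K (F2, F7, F9, F10, Proc, Pros1 and Proz), a grouping chosen after the values were seen. Of these 7 genes 6 fell, with a median of -0.56. The exception was Pros1, protein S, at 0.27 (adjusted p = 0.134). For comparison, 67.5% of the listed clotting and complement genes that were measured fell, as did 15% of all genes tested. Whether the vitamin K-dependent genes differ from the rest of the list was not tested.

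Fibrinogen, the substrate of the cascade, moved in the other direction. Its chains are encoded by the neighbouring genes Fga, Fgb and Fgg, whose log2 signals exceed those of 99.9% of the genes tested. Fgb read 13.58 and 13.83 in null-labelled arrays at 24 h, against 13.15 and 13.20 at 0 h, and 13.83 and 13.63 in wild type at 24 h, against 13.20 and 13.17 at 0 h. Fgg read 13.36 and 13.38 in null-labelled arrays at 24 h, against 12.98 and 13.07 at 0 h, and 13.35 and 13.36 in wild type at 24 h, against 13.08 and 13.10 at 0 h. Fga read 13.43 and 13.51 in null-labelled arrays at 24 h, against 13.22 and 13.24 at 0 h, and 13.52 and 13.43 in wild type at 24 h, against 13.18 and 13.20 at 0 h. For each chain all arrays at 24 h lay above all arrays at 0 h, and the genotypes lay close together. Fgb rose by 0.54 ± 0.10 (adjusted p = 0.0131, 1.45-fold) and Fgg by 0.30 ± 0.08 (adjusted p = 0.0337, 1.23-fold), while Fga stood at 0.26 ± 0.08 and missed the threshold (adjusted p = 0.0525). The call of Fgg was made in 7 of 19 settings (highest adjusted p = 0.114, limma), that of Fgb in 18 and that of Fga in 5.

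The 250 bases before the start sites of the fibrinogen genes are shown because these neighbours moved together; they come from RefSeq on mouse GRCm38.p6 and are written 5′ to 3′ on the strand of the gene. Capitals mark the letters CTGGGA, the core of the interleukin-6 response element of acute phase genes, and ATTAAC, the reverse complement of GTTAAT, part of the binding site of the hepatocyte factor HNF1. Fga lies at chr3:83025903-83026152 on the plus strand, Fgb at chr3:83049864-83050113 on the minus strand and Fgg at chr3:83007474-83007723 on the plus strand.
Fga: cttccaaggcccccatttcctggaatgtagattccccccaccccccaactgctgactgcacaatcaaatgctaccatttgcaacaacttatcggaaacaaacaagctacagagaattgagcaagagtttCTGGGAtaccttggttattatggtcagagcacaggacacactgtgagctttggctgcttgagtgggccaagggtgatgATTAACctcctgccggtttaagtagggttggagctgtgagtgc
Fgb: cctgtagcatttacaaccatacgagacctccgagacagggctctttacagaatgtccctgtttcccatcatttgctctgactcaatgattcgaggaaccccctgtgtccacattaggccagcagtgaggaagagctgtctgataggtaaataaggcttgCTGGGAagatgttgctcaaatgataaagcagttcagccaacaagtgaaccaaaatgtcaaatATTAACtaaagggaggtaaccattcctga
Fgg: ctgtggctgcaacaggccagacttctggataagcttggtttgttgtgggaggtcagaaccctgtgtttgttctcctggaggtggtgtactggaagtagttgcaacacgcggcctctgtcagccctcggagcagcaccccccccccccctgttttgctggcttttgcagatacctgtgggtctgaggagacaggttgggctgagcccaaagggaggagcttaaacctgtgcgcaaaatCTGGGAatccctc
The CTGGGA match begins 121 bases before the start of Fga, 91 before that of Fgb and 13 before that of Fgg, and ATTAAC begins 43 bases before the start of Fga and 29 before that of Fgb. On either strand, CTGGGA occurs in 27% of 32851 mouse promoters of this length and GTTAAT in 6.43%. These shares are of single promoters, whereas a gene with several promoters was counted below if any of them held the letters. The shares and the gene counts are therefore not in the same unit. Among the 32 measured genes with a promoter in the table, CTGGGA was present in 13, which were 3 of the 3 that rose, 6 of the 20 that fell and 4 of the 9 others. GTTAAT was present in 9 of the 32, namely F13b, Fga, Fgb, Proz, Vtn, C4bp, Hc, C8a and C8b. These were 2 of the 3 that rose, 5 of the 20 that fell and 2 of the 9 others. The longer CTGGGAA occurs in 9.1% of promoters and was present in 5 of the 32, F9, Fgb, Fgg, Tfpi and Masp2. These were 2 of the 3 that rose, 2 of the 20 that fell and 1 of the 9 others. A match of these letters is a description and shows no binding.

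**Figure D3:**
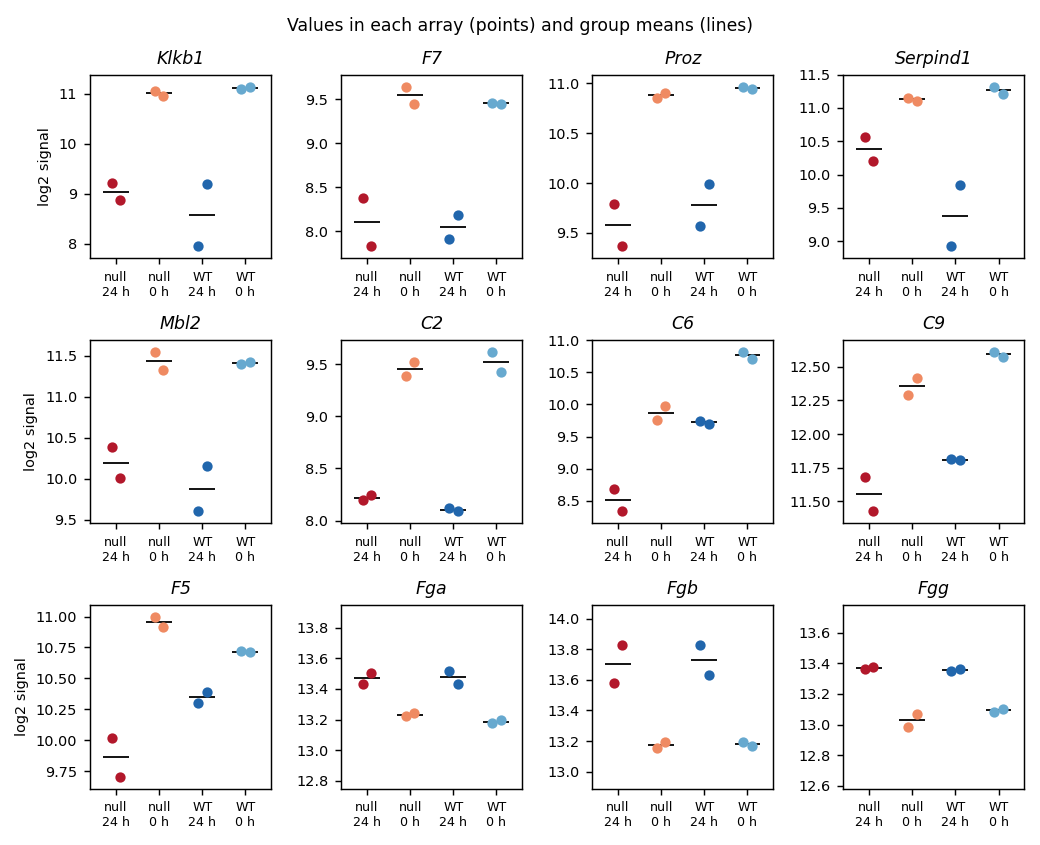
Log2 signal (vertical axis, on a scale of its own for each gene) of each array (points) and group means (lines) for 12 genes. Klkb1 and Serpind1 show the widest spread between the wild type pools at 24 h; for Fga, Fgb and Fgg the arrays at 24 h lie above those at 0 h, and for the other genes below them within each genotype.

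Among the inhibitors of clotting, Serpind1, heparin cofactor II, which inhibits thrombin, read 10.56 and 10.20 in null-labelled arrays at 24 h, against 11.15 and 11.11 at 0 h, and 8.92 and 9.84 in wild type at 24 h, against 11.32 and 11.21 at 0 h. All arrays at 24 h were lower, most of all the first wild type pool. The mean difference was -1.32 ± 0.22 (adjusted p = 0.0097, 2.49-fold). Proz, protein Z, a cofactor in the inhibition of factor Xa, read 9.79 and 9.37 in null-labelled arrays at 24 h, against 10.86 and 10.91 at 0 h, and 9.57 and 9.99 in wild type at 24 h, against 10.97 and 10.95 at 0 h. It fell by 1.24 ± 0.14 (adjusted p = 0.00416, 2.36-fold), and its other probe set by 0.72.

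Proc, protein C, which once activated inactivates factors V and VIII, read 10.30 and 10.05 in null-labelled arrays at 24 h, against 10.94 and 11.01 at 0 h, and 10.45 and 10.51 in wild type at 24 h, against 11.09 and 11.09 at 0 h. The groups at 24 h and 0 h did not overlap, and the mean difference was -0.71 ± 0.09 (adjusted p = 0.00539). Plg, plasminogen, the precursor of plasmin, read 11.94 and 11.76 in null-labelled arrays at 24 h, against 12.62 and 12.56 at 0 h, and 11.98 and 12.12 in wild type at 24 h, against 12.55 and 12.55 at 0 h. It fell by 0.62 ± 0.09 (adjusted p = 0.00682), and Serpinf2, the antiplasmin that inhibits plasmin, by 0.48 (adjusted p = 0.0124). Serpinc1, antithrombin, fell by 0.32 (adjusted p = 0.0316), a call made in 7 of 19 settings (highest adjusted p = 0.364). Also lower was Hrg, the histidine-rich glycoprotein, which binds heparin and plasminogen, at -0.44 ± 0.10 (adjusted p = 0.0203, called in 13 of 19 settings). Genes that promote clotting and genes that restrain it were thus both among those that fell. Tfpi, the tissue factor pathway inhibitor, stood at 0.34 and Vtn, vitronectin, at 0.07, and neither passed.

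In complement activation the largest falls were those of Mbl2 and C2. Mbl2, a mannose-binding lectin that starts the lectin pathway, read 10.39 and 10.01 in null-labelled arrays at 24 h, against 11.55 and 11.33 at 0 h, and 9.60 and 10.16 in wild type at 24 h, against 11.40 and 11.42 at 0 h. The groups at 24 h and 0 h lay apart, with a mean difference of -1.39 ± 0.16 (adjusted p = 0.00438, 2.61-fold). Mbl1, the other mannose-binding lectin, stood at -0.13 (adjusted p = 0.430). C2, the protease of the classical and lectin pathway convertase, read 8.20 and 8.24 in null-labelled arrays at 24 h, against 9.38 and 9.53 at 0 h, and 8.12 and 8.09 in wild type at 24 h, against 9.62 and 9.42 at 0 h. Its pools lay close together within each group, and C2 had the smallest adjusted p of the 40 genes (-1.33 ± 0.09, adjusted p = 0.00208, 2.51-fold). Its 3 probe sets gave -1.21, -1.33 and -1.31.

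Cfb, factor B, which takes the place of C2 in the alternative pathway, fell by 0.40 ± 0.08 (adjusted p = 0.0154). Cfi, the protease that inactivates C3b and C4b, fell by 0.47 (adjusted p = 0.0118), and Serping1, the C1 inhibitor, by 0.30 (adjusted p = 0.0438), a call made in 6 of 19 settings (highest adjusted p = 0.131). Masp2, a protease bound to the lectins, fell by 0.46 ± 0.11 (adjusted p = 0.0249, called in 12 of 19 settings). Masp1, the partner protease, stood at -0.09 (adjusted p = 0.451) by its brightest probe set. Of its other probe sets 3 gave -0.42, -0.50 and -0.49 with adjusted p values of 0.0377, 0.0469 and 0.0215 in a fit of all probe sets. Its remaining probe set went the other way, at 0.51, and did not pass (limma, adjusted p = 0.161 in the same fit). Whether these probe sets read different transcripts was not tested.

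C4bp, the inhibitor of the classical and lectin convertase, was the complement gene that rose. It read 11.54 and 11.49 in null-labelled arrays at 24 h, against 10.65 and 10.89 at 0 h, and 11.59 and 11.51 in wild type at 24 h, against 11.23 and 11.15 at 0 h. All arrays at 24 h lay above all arrays at 0 h, and the null-labelled arrays at 0 h were the lowest. The mean difference was 0.55 ± 0.09 (adjusted p = 0.0104, 1.47-fold).

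All components of the terminal pathway that were measured fell. C6 read 8.68 and 8.33 in null-labelled arrays at 24 h, against 9.76 and 9.98 at 0 h, and 9.75 and 9.70 in wild type at 24 h, against 10.82 and 10.71 at 0 h. Within each genotype the arrays at 24 h were lower; across genotypes, wild type at 24 h lay just below the null-labelled arrays at 0 h. The mean difference between the times was -1.20 ± 0.12 (adjusted p = 0.00307).

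C8b, the beta chain of C8, read 9.79 and 9.71 in null-labelled arrays at 24 h, against 10.51 and 10.65 at 0 h, and 10.02 and 10.00 in wild type at 24 h, against 11.01 and 10.79 at 0 h. C9, whose copies line the pore, read 11.68 and 11.42 in null-labelled arrays at 24 h, against 12.29 and 12.41 at 0 h, and 11.81 and 11.81 in wild type at 24 h, against 12.61 and 12.57 at 0 h. Neither gene's arrays at 24 h overlapped those at 0 h. C8b fell by 0.86 ± 0.09 (adjusted p = 0.00369) and C9 by 0.79 ± 0.09 (adjusted p = 0.00444). The other chains of C8 fell by less, C8g by 0.52 (adjusted p = 0.00775) and C8a by 0.48 (adjusted p = 0.0197, called in 14 of 19 settings). Hc, complement C5, from which the pore starts, fell by 0.58 (adjusted p = 0.014).

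Several of these genes lie next to each other in the mouse genome, as RefSeq orders them, and neighbours did not always move by the same amount. F7, F10 and Proz follow each other on chromosome 8 with no other coding gene between them and all fell. On the same chromosome Klkb1 and its neighbour F11 differed, Klkb1 at -2.26 ± 0.27 and F11 at -0.21 ± 0.14. On chromosome 17 the neighbours C2 and Cfb, the paired convertase proteases, stood at -1.33 ± 0.09 and -0.40 ± 0.08. On chromosome 4 the neighbours C8b and C8a both fell, as did Kng1 and Hrg on chromosome 16, which have 1 coding gene between them. Differences between genes were not tested, and probe sets differ in how they respond.

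The 250 bases before the start sites of Klkb1 and F11 are shown because these neighbours differed most; the source, the strand written and the capitals are as for fibrinogen. Klkb1 lies at chr8:45294836-45295085 and F11 at chr8:45262032-45262281, both on the minus strand.
Klkb1: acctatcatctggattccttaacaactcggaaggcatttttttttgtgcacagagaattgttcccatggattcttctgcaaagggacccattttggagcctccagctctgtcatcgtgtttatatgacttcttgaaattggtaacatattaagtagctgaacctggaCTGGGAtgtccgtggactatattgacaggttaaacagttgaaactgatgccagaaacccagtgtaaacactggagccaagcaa
F11: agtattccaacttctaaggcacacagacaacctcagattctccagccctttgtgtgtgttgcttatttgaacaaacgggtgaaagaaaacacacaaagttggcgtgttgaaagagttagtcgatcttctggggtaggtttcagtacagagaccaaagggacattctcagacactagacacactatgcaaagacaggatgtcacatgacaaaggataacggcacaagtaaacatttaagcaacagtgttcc
The Klkb1 window holds CTGGGA, beginning 83 bases before the start, and neither motif was found in the F11 window. Nothing follows from this about the factors.

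**Figure D4:**
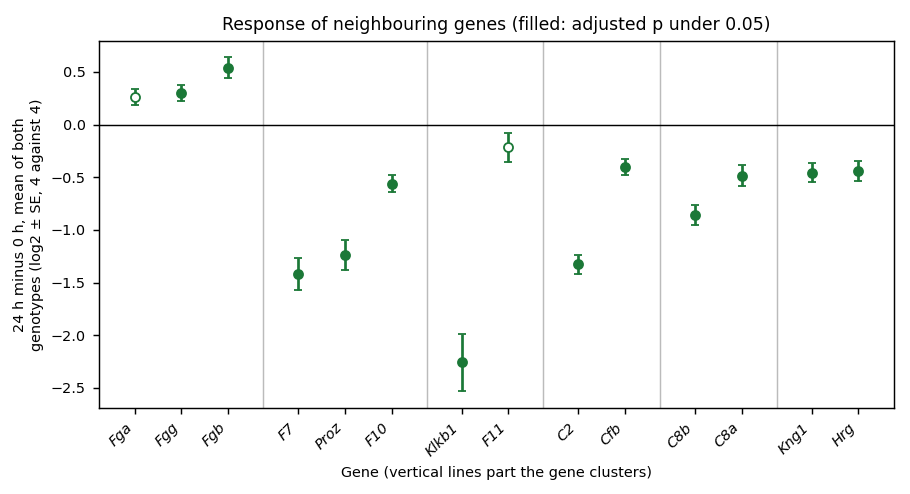
Log2 difference, 24 h minus 0 h averaged over both genotypes (vertical axis, mean ± SE, 4 arrays against 4), for genes that lie next to each other, with vertical lines between the clusters. Filled points passed an adjusted p under 0.05; Klkb1 and F11 lie furthest apart, and the fibrinogen genes lie above 0.

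Within each genotype the response rested on 2 arrays against 2. In the null-labelled arrays 20 of the 40 genes fell and 1, C4bp, rose, where 7.23% of all genes tested fell and 7.45% rose. In wild type 13 fell and none rose, where 5.08% and 4.13% of all genes tested did. The median was -0.48 in the null-labelled arrays and -0.39 in wild type. The difference had the same sign in both for 38 of the 40 genes. The share of all genes tested with the same sign is not given here, so this count has no background beside it. Both arrays at 24 h lay below both at 0 h for 29 genes and above them for 9 in the null-labelled arrays (33.3% and 29.7% of all genes tested), and for 28 and 7 genes in wild type (32.7% and 29.4%). The genes that fell in both were 12 of the 40, among them Klkb1, F7, Mbl2, C2, Proz, C6, C8b and C9. Of all genes tested at most 5.08%, the share that fell in wild type, can have fallen in both. Another 8 fell in the null-labelled arrays and 1, Serpind1, in wild type, which does not show that they differ between the genotypes. These counts depend on single arrays. For the null-labelled response, 21 genes were called in all, 0 when either null-labelled array at 0 h was left out, 13 when the first and 4 when the second at 24 h was left out, and 8 when either wild type array at 0 h was left out. For the wild type response, 13 were called in all, 0 when either wild type array at 0 h or the first at 24 h was left out, 7 when the second at 24 h was left out, and 1 when either null-labelled array at 0 h was left out. With a replicate block the counts were 9 and 1, and none when only the groups compared were fitted.

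**Figure D5:**
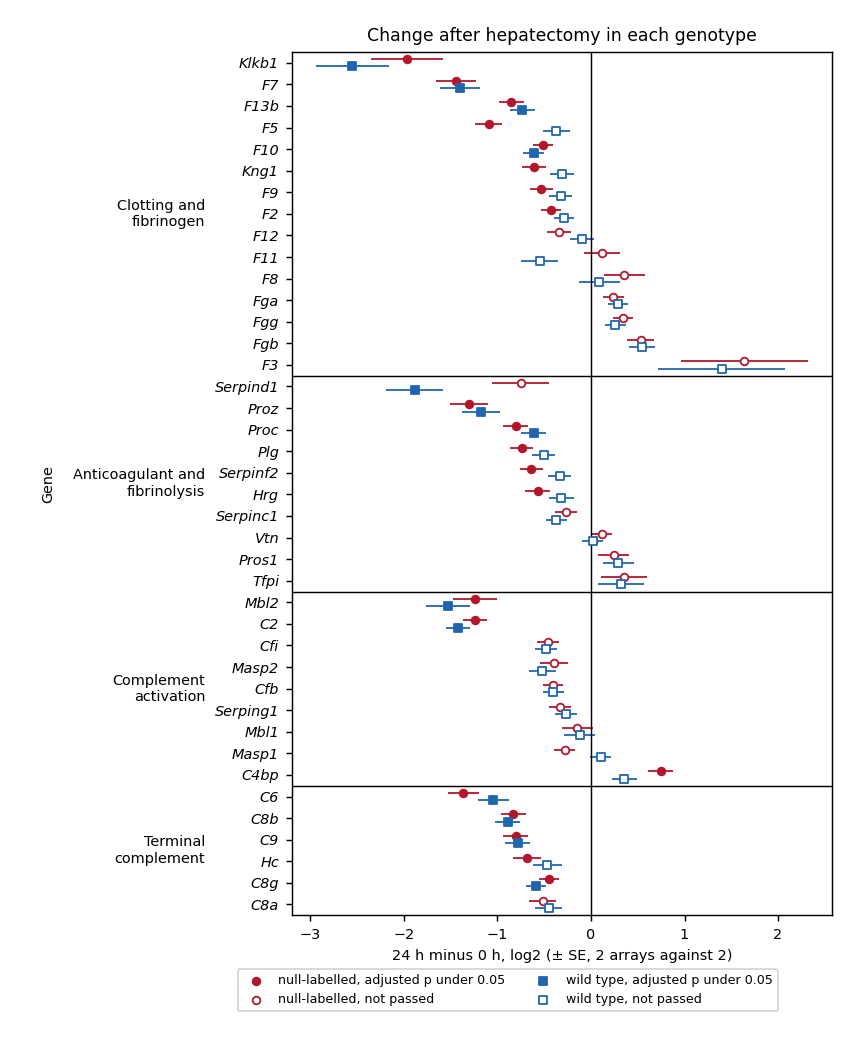
Log2 difference, 24 h minus 0 h (horizontal axis, mean ± SE, 2 arrays against 2), in null-labelled arrays (circles) and wild type (squares) for each gene, grouped by role; filled symbols passed an adjusted p under 0.05. Most pairs of symbols lie close together left of 0, with F5 and Serpind1 among the widest apart.

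The design also asks whether the response differs between the genotypes, and for no gene did that difference pass. None of the 40 genes passed in limma's test of the difference between the responses, where 0% of all genes tested did in either direction. At an unadjusted p under 0.05 there were 2 of the 40 genes, as against 1244 of all genes tested. The smallest p was that of F5, where the response was -1.09 ± 0.14 in the null-labelled arrays and -0.37 ± 0.14 in wild type, a difference of -0.72 ± 0.20 (adjusted p = 0.543) by limma. Its second probe set gave a difference of -0.47. Serpind1 went the other way, with -0.75 ± 0.30 in the null-labelled arrays and -1.88 in wild type, a difference of 1.13 ± 0.43 (adjusted p = 0.574) that was 0.68 when the first wild type pool at 24 h was left out. F11 read 8.89 and 8.89 in null-labelled arrays at 24 h, against 8.63 and 8.91 at 0 h, and 8.68 and 8.76 in wild type at 24 h, against 9.51 and 9.03 at 0 h. Its times overlapped in the null-labelled arrays, while both wild type arrays at 24 h lay below both at 0 h. Its difference of responses was 0.67 ± 0.28 (adjusted p = 0.581 by limma). The SE of these differences had a median of 0.19 over the 40 genes. Differences well above that size, such as -0.72 for F5, did not pass, so smaller ones could not be told from none either.

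Comparing the null-labelled arrays with wild type at the same time, no gene of the 40 passed. At 24 h 0.00692% of all genes tested were called higher and 0% lower, and at 0 h 0% in either direction. At an unadjusted p under 0.05 by limma there were 6 of the 40 genes at 24 h and 4 at 0 h, as against 1695 and 1390 of all genes tested. Averaged over both times none passed either, where 0.0208% of all genes tested were called higher and 0.0138% lower, and 7 had an unadjusted p under 0.05, as against 1834 of all genes tested. By sign, 31 of the 40 genes were lower in the null-labelled arrays averaged over both times, as were 7084 of the 14450 genes tested. Their median was -0.11, against 0.01 over all genes, and with arrays centred on their medians instead it was -0.0087, against 0.08 over all genes. Both null-labelled arrays lay below both wild type arrays for 18 genes and above them for 5 at 24 h (19.7% and 20.9% of all genes tested), and for 23 and 4 at 0 h (23.9% and 24.2%). All 4 null-labelled arrays lay wholly below or above all 4 wild type arrays for none of the 40 genes, where 1.67% and 2.06% of all genes tested did. The 3′ to 5′ ratios were also higher in the null-labelled arrays at both times. For Gapdh the ratio was 0.16 ± 0.12 in null-labelled arrays at 24 h, against 0.07 ± 0.10 in wild type, and 0.52 ± 0.02 in null-labelled arrays at 0 h, against 0.23 ± 0.07 in wild type (log2, SD, n = 2 each), and for actin the order was the same. The part of RNA quality in these differences was not tested.

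C6 stood out by size in that comparison. It was lower in both null-labelled arrays than in both wild type arrays at each time, by 1.22 at 24 h (-1.22 ± 0.16, adjusted p = 0.147) and by 0.90 at 0 h (-0.90 ± 0.16, adjusted p = 0.355). Averaged over both times the difference was -1.06 ± 0.12 (adjusted p = 0.0924), a 2.08-fold lower level that missed the threshold. Over the alternatives its adjusted p ranged from 0.00201 to 0.249, and it passed with a trended and robust prior, with a stricter filter (0.0282) and with 16 added to the linear signals (0.0150). C6 was measured by 1 probe set.

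Other genes with small p in a genotype comparison had smaller or less certain differences. Masp2 read 9.17 and 8.96 in null-labelled arrays at 24 h, against 9.30 and 9.51 in wild type, and 9.37 and 9.55 in null-labelled arrays at 0 h, against 9.96 and 9.89 in wild type. Its arrays did not overlap between genotypes at either time, with a difference of -0.40 ± 0.11 over both times (adjusted p = 0.264), but its second probe set differed by 0.19 the other way. Hrg read 11.39 and 11.24 in null-labelled arrays at 24 h, against 11.63 and 11.86 in wild type, and 11.90 and 11.87 in null-labelled arrays at 0 h, against 12.11 and 12.02 in wild type, a difference of -0.30 ± 0.10 over both times (adjusted p = 0.311). C4bp differed by -0.43 at 0 h (adjusted p = 0.447). At 24 h Serpind1 stood 0.999 ± 0.30 higher in the null-labelled arrays (adjusted p = 0.327), or 0.54 with that pool left out, and F5 at -0.48 ± 0.14 (adjusted p = 0.315).

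Other genes of these pathways were taken from lists drawn up apart from the 40 genes, and their counts stand beside the 15% of all genes tested that fell and the 13.8% that rose. Of 24 other complement genes measured out of 35 listed, 10 fell and 1 rose (median -0.35). The difference was below 0 for 15 of the 24 in the null-labelled arrays and for 22 in wild type. The collectins Colec10 (-1.64 ± 0.13, adjusted p = 0.0025) and Colec11 (-1.31, adjusted p = 0.0031), which like Mbl2 start the lectin pathway, fell, as did C1ra (-0.73) and C1s1 (-0.81), the proteases of C1. Cfhr2, a factor H relative, stood at -0.97 and Cpn2, a subunit of the carboxypeptidase that trims anaphylatoxins, at -1.19, both among the genes that fell. Of 21 other coagulation genes measured out of 29 listed, 6 rose and 2 fell (median 0.07). Thbd, thrombomodulin, the receptor through which thrombin activates protein C, rose by 2.88 ± 0.28 (adjusted p = 0.0031, 7.37-fold). The genes that fell were Ggcx (-0.63), the carboxylase of the vitamin K-dependent factors, and Vkorc1 (-0.73), which regenerates vitamin K for it, while the related Vkorc1l1 rose by 0.85. Gas6, a vitamin K-dependent ligand of receptor kinases, rose by 1.24, and S100a10, a plasminogen receptor subunit, by 0.93.

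Of 20 regulators of liver genes measured out of 22 listed, 7 fell and 5 rose averaged over both genotypes (median -0.17). In the null-labelled arrays 6 fell and 1 rose (median -0.51), and in wild type 1 fell and 2 rose (median 0.10). The response was lower in the null-labelled arrays for 18 of the 20, with a median difference of -0.58, and 6 had an unadjusted p under 0.05 in limma's test of that difference but none passed after adjustment. Those that fell in the average were the hepatocyte factors Cebpa (-1.68 ± 0.18, adjusted p = 0.0038), Onecut1 (-1.57), Foxa2 (-0.52) and Hnf4a (-0.34), the circadian factor Dbp (-2.24), the nuclear receptor Ppara (-0.82) and the interleukin-6 receptor chain Il6ra (-0.70). Of these, Cebpa alone passed in both genotypes (-1.97 in the null-labelled arrays and -1.38 in wild type), while the difference between the responses did not pass for any. Dbp stood at -3.60 in the null-labelled arrays and -0.87 in wild type, Onecut1 at -2.76 in the null-labelled arrays and -0.38 in wild type, and Ppara at -1.44 in the null-labelled arrays and -0.19 in wild type. Those that rose in the average were Cebpd (1.27) and Socs3 (1.43), both known to be induced by interleukin-6, the receptor chains Il6st (0.70) and Il1r1 (1.42), and the nuclear receptor Nr1i3 (1.03). Whether any of them bears on the clotting and complement genes was not tested.

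Some markers of other cells also differed between the times, where 13.8% of all genes tested rose and 15% fell. Of the 14 Kupffer cell and leucocyte markers 4 rose (Marco, Cd68, S100a8 and S100a9) and 4 fell (Cd74, Csf1r, Adgre1 and Clec4f). Their median difference was -0.05 with 8 of 14 below 0, at 0.27 in the null-labelled arrays and -0.32 in wild type. The mean log2 level of the list, to which Marco contributed a difference of 4.07, was 7.11 and 7.12 in null-labelled arrays at 24 h, against 6.37 and 6.39 at 0 h, and 6.86 and 6.90 in wild type at 24 h, against 6.57 and 6.57 at 0 h. Of the 4 adipocyte markers measured Cidec rose by 5.14 and Fabp4 by 2.01. The other 2, Retn and Slc36a2, lay below 0 (lowest -0.17) and did not pass. Of the 10 stellate cell markers 3 fell, Reln (-0.95), Des (-0.87) and Col3a1 (-0.85), and none rose. Of the 2 red cell markers measured Alas2 fell by 1.13, and of the 4 bile duct markers measured Sox9 rose by 0.99. Of the 11 endothelial markers 1 rose, Pecam1 at 0.79, and none fell (median 0.07, with 5 of 11 below 0). Of the 7 platelet markers 2 rose, Pf4 at 0.66 and Gp9 at 0.49, and none fell. The platelet median was nevertheless -0.13, with 4 of 7 below 0, and in the null-labelled arrays alone 1 platelet marker fell (median -0.30). The part of these cells in the results was not tested.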

How the data were processed

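The deposited values are the authors' log2 signals for 45101 probe sets, a scale read from the values themselves (-0.32 to 14.29); the labels' protocols give Trizol RNA and biotin-labelled cRNA, and the algorithm behind the signals is not stated in these sources. The array annotation names 1 gene for 34945 probe sets, several for 932 and none for 9160; 64 controls were left out, and 34741 probe sets had a gene ID in the RefSeq table, which changed 0 symbols.

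Percentiles differed between arrays by up to 0.62 (tolerance 0.1), so values were quantile normalised. Probe sets above the 40th percentile in at least 2 arrays were kept (limit 3.60). Group means were fitted over the 8 arrays by limma 3.58.1 under R 4.3.3 (4 residual and 2.01 prior degrees of freedom), two-sided, adjusted by Benjamini-Hochberg over 14450 genes, and tested on simulated data. Rose and fell are used of genes with an adjusted p under 0.05. The members, lists and comparisons were chosen with earlier results of these data known. Every member is named; values in all arrays are given for members that passed and differed by at least 0.58 in log2, for fibrinogen, and for the members with the smallest p in each genotype comparison. F3, C4bp and the vitamin K-dependent group were described at length after their values were seen. Same-numbered arrays deviated from their group means with correlations of -0.197 to 0.051, so the numbers were not taken to pair arrays. The array's genome build is not given here; sequences are RefSeq's on GRCm38.p6. The number of arrays limits the precision.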

Additional observations from a re-analysis of the deposited data

Results flagged for a closer look

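Masp1 was singled out because both null-labelled arrays at 24 h lay below both at 0 h, while both wild type arrays at 24 h lay above both at 0 h. It read 10.19 and 10.06 in null-labelled arrays at 24 h, against 10.38 and 10.43 at 0 h, and 10.42 and 10.43 in wild type at 24 h, against 10.32 and 10.32 at 0 h. The response was -0.28 in the null-labelled arrays and 0.10 in wild type, a difference of -0.38 ± 0.16 that did not pass in limma's test of the difference itself (adjusted p = 0.583). Its other probe sets gave differences of response of -0.02, 0.14, -0.10 and -0.54.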

How the results depend on the processing

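Each result was recomputed under 18 alternatives to the settings given above. Comparisons within 1 genotype or at 1 time were also run with the groups compared fitted alone. For the mean of both genotypes, 16 genes fell and 1, C4bp, rose in all 19 settings, namely F5, F7, F10, F13b, Klkb1, Serpind1, Proc, Proz, Plg, C2, Cfi, Mbl2, C6, C8b, C8g and C9 among those that fell. Of all genes tested 15% fell and 13.8% rose in the main setting, so at most these shares can have done so in all 19. The count called there, 30, was 18 to 29 when 1 array was left out, the lowest when the first null-labelled pool at 0 h was left out, and 27 with a replicate block. In the null-labelled arrays the count, 21, was 12 without the filter, 32 with a trended and robust prior, 9 with the replicate block, 0 with the groups compared fitted alone, and 0 to 16 leaving out 1 array. In wild type the count, 13, was 7, 32, 1 and 0 under the same settings, and 0 to 13 leaving out 1 array. A block with the wild type numbers exchanged, added after seeing the data, gave 15 and 11. C6 alone was called (count 1) between genotypes at 24 h with the trended prior and with 16 added, and over both times with these and with the 60th percentile filter; all counts leaving out 1 array were 0.

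With the values as deposited, without normalisation, the median over the genes was -0.64 in the null-labelled arrays, -0.53 in wild type and -0.58 for both. With median centring it was -0.49 in wild type, 0.028 between genotypes at 24 h, -0.0087 over both times and 0.13 for the difference of responses; the medians over all genes under that setting were 0.14, 0.08 and 0.12 in the last 3, so part of each shift is that of all genes. Leaving out 1 array, the medians ranged from -0.54 to -0.45 (null-labelled response), -0.43 to -0.37 (wild type response), -0.49 to -0.41 (both), -0.23 to -0.061 (genotypes at 24 h), -0.10 to -0.05 (at 0 h), -0.14 to -0.05 (both times) and -0.083 to 0.073 (difference of responses). The sign turned for Vtn in the mean response, at -0.017 with the mean of its probe sets and -0.10 with the most variable one, for Masp1 there (0.51, most variable), and for Masp2 between genotypes at 0 h (0.017 with the mean, 0.50 with the most variable) and over both times (0.19, most variable). Fits that leave out an array assume that its group's lone array varies like those of other groups. With 2 pools a group, small differences between genotypes cannot be resolved.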
